A study of Mus musculus with 13 samples.

Results

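Intronic peaks are the regions of open chromatin that the deposited annotation of this ATAC-seq study placed inside an intron of a gene. ATAC-seq maps open chromatin with a transposase that inserts sequencing adapters into accessible DNA. All rows annotated to an intron on an autosome were taken, which gave 11970 of the 38620 peaks, beside 14061 promoter peaks and 9468 intergenic peaks. A further 167 intronic peaks on the sex chromosomes were left out. Enough counts for a test were found in 11565 of the 11970 peaks, and 405 were not tested.

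The cells were microglia, the macrophages of the brain parenchyma, sorted as DAPIneg, CD11bhigh, CD45int and Ly6cneg cells from brains of male C57BL/6J mice. Each mouse had an injection at 10 weeks of age and another 5 weeks later, and cells were taken 3 hours after the last one, at 15 weeks. Between the injections, 1 week after the earlier one, mice received vehicle or BLZ945 at 169 mg/kg per day for 5 days. BLZ945 blocks CSF1R, whose signal keeps microglia alive, so that the cells are depleted and then repopulate the brain once dosing stops. Injections held PBS or LPS at 1 mg/kg, a bacterial cell wall component sensed by Toll-like receptor 4. In the group names each letter stands for a treatment in order of time: L means LPS, P means PBS and B means BLZ945. LBL mice had LPS at both times with BLZ945 between, and LL mice had LPS at both times with vehicle. PBL and PL mice had PBS and later their only LPS, with BLZ945 and with vehicle between. PBP and PP mice had PBS at both times, again with BLZ945 and with vehicle. PBL had 3 libraries and each other group 2. Every library pooled 40000 cells of each of 2 animals, and p-values therefore measure the spread between pools. Number 4 occurs in the names of both PBL pools 3_4 and 4_5, which may have an animal in common.

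Introns hold many of the enhancers of mammalian genes, which are stretches of DNA where transcription factors bind and act on a promoter that may lie far off. In microglia the factor PU.1 keeps a large set of such elements open together with C/EBP, IRF, MEF2 and SMAD factors. Toll-like receptor 4 signalling brings NF-kB, AP-1 and interferon regulatory factors to them. LPS also raises circulating glucocorticoids in the mouse, and the glucocorticoid receptor binds mostly at distal elements. An intronic peak need not act on the gene around it, and the annotation says only where it lies.

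The deposited table gives positions on mouse build GRCm38 but no sequence, and motifs across the intronic peaks were not analysed here. RefSeq start windows, 250 bases before to 50 bases after an annotated transcription start on GRCm38.p6, gave sequence for the few peaks that overlap one. Of the 11970 intronic peaks, 68 overlapped 76 such windows, and 15 peaks held a window whole. They are starts of alternative transcripts or of genes nested in the intron. In 5 of those 15 peaks the counts differed in at least 1 comparison, and 4 are shown because each joins a changed intronic peak to readable sequence. The peak near Gm3435 among the 15 was not tested. The share of all peaks that differed in at least 1 comparison was not counted, so the 5 cannot be read as many or few. The windows run 5′ to 3′ along the strand of the start, in lower case, with motif matches in capitals.
Tbc1d22a, chr15:86277425-86277724, plus strand: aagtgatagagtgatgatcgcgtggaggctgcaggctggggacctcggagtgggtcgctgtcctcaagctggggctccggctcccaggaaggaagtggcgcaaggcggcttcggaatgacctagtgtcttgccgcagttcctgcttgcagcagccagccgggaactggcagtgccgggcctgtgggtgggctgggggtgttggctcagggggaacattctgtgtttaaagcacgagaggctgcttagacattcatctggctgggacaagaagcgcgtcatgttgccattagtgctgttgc
Trim30a, chr7:104446076-104446375, minus strand: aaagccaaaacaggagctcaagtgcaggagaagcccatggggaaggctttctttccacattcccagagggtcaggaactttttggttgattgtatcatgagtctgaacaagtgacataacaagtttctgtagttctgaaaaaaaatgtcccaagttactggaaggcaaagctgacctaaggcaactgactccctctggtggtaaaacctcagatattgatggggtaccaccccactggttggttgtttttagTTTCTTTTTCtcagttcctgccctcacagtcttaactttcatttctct
Gm39671 in Eml6, chr11:29808615-29808914, plus strand: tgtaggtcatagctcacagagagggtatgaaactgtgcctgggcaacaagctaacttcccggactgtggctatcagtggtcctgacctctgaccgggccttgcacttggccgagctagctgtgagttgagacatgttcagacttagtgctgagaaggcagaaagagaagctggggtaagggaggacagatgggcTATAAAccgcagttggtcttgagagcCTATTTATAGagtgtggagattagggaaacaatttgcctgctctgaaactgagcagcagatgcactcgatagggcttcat
Gm41130 in Arhgap22, chr14:33231894-33232193, minus strand: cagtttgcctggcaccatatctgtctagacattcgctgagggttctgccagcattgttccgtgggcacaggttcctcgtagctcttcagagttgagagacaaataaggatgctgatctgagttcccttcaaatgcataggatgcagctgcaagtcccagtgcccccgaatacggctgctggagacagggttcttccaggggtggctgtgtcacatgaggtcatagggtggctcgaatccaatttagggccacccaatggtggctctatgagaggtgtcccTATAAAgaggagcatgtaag

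The letters searched, on both strands, were GAGGAAGT for PU.1, TGANTCA for AP-1, TTGCNNAA for C/EBP, TATAAA for a TATA box and GGGCGG for a GC box. The IRF motif was GAAA, any 2 letters, GAAA, the glucocorticoid motif was AGAACA, any 3 letters, TGTTCT, and the NF-kB and MEF2 motifs allow alternatives at several letters. The Tbc1d22a window held none of these letters. In the Trim30a window the capitals mark an IRF match, on the strand opposite to the gene, and 3.44% of the 32851 windows in the RefSeq table hold one. In the Gm39671 window they mark a TATA match and, nearer the start, a MEF2 match that reads on both strands and overlaps a further TATA match. A MEF2 match is found in 0.557% and a TATA match in 13.6% of all windows, and the Gm41130 window holds only a TATA match, downstream of its start. PU.1 letters occur in 3.20% of all windows, AP-1 in 7.81%, C/EBP in 10.8%, NF-kB in 8.46%, the glucocorticoid motif in 0.0091% and the GC box in 35.7%. A match is a description of letters and not a site of binding.

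Most intronic peaks were distal elements of modest height. Their median width was 359 bp, against 653 bp for promoter peaks and 375 bp for intergenic peaks. The median distance to the nearest start site was 11612.5 bp, and 54.9% lay more than 10 kb from one. None lay within 1 kb of a start site of the deposited annotation, which calls every such peak a promoter peak. These distances do not count the RefSeq starts missing from that annotation, whose windows 68 of the peaks overlapped. The first intron held 39.5% of them (4726 peaks). Per kb of peak, the median level was 36.0 CPM, against 52.1 CPM at promoter peaks and 34.9 CPM at intergenic peaks. CPM here are counts in a peak on the usual CPM scale, with the library total in peaks adjusted by TMM factors (the trimmed mean of M-values).

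A host gene could be named for 10526 of the 11970 intronic peaks, from 4109 genes. Of these hosts, 2113 held 1 peak and 144 held at least 10. The host was also the gene with the nearest start site for 9202 peaks. Among the 1444 peaks without a named host, 921 carried only a transcript ID, and for 523 the RefSeq gene of that name does not reach the peak. The annotation placed 93 peaks in introns of Galnt2, of which 1 lies inside the RefSeq gene. Peaks with no named host are given below as near the gene with the closest start site.

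Libraries held between 927893 and 2772620 counts in peaks, with the PP libraries the shallowest. Microglial marker genes (8 of 10 with a promoter peak) summed to 312 to 502 CPM over their promoters in every library. Over their 11 intronic peaks, in 4 of the 10 genes, they summed to 425 to 532 CPM. Promoter sums of other lists were lower, at 32.8 to 59.9 CPM for lymphocytes, 27.0 to 40.6 CPM for monocytes and neutrophils and 18.9 to 32.8 CPM for oligodendrocytes. Markers of lymphocytes and of astrocytes had no intronic peak, and neuronal markers had no promoter peak. Other lists had intronic signal below that of the microglial genes, with 40.3 to 60.7 CPM for border macrophages, all in Mrc1, and 41.2 to 69.8 CPM for monocytes and neutrophils. Vascular genes summed to 51.7 to 77.3 CPM, and 10 peaks in Mbp of oligodendrocytes to 165 to 224 CPM. In pools of sorted cells, fewer cells of a type and less signal per cell cannot be told apart. PBL, LL and LBL cells went through an XDP sorter and PP, PBP and PL cells through an Astrios sorter. The libraries fell on 5 isolation days. PL pool 1_2 was isolated together with PBP and PL pool 3_4 together with PP, while the PBL, LL and LBL pools were each isolated on a separate day. A difference between groups of different days therefore cannot be told apart from a difference between days.

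Intronic peaks took up between 18.8% and 22.4% of the counts of a library. The share was 21.0% and 20.9% in LBL, 20.9% and 21.4% in LL, 19.1%, 20.5% and 19.7% in PBL, 19.7% and 22.4% in PL, 18.8% and 20.0% in PBP, and 19.0% and 19.0% in PP. The extremes were PL pool 3_4 at the top and PBP pool 1_2 at the bottom, and the LPS libraries overlapped the PBS libraries. Averages were 20.6% over the 9 libraries with LPS as the last injection and 19.2% over the 4 with PBS. That difference of 1.45 points gave p = 0.0224 by an exact two-sided permutation test and 0.0671 after Benjamini-Hochberg adjustment over 3 contrasts. Among the Astrios libraries alone it was 21.1% against 19.2% (exact permutation p = 0.267, where 0.133 is the smallest possible). Within the counts of intronic and intergenic peaks together, the intronic part was 55.6% with LPS and 55.2% with PBS (exact permutation p = 0.0867), 55.5% with BLZ945 and 55.5% with vehicle (exact permutation p = 0.869), and 55.9% with LPS at both times and 55.4% with a single LPS (exact permutation p = 0.0476, adjusted 0.130). Promoter counts moved the other way, with 56.6% of counts in the LPS libraries against 59.1% in the PBS libraries. BLZ945 libraries averaged 20.0% and vehicle libraries 20.4% (exact permutation p = 0.531). LPS at both times gave 21.1% and LPS at the last time only 20.3% (exact permutation p = 0.270, and 0.0571 within the XDP libraries, the smallest possible there). Leaving out 1 library moved the adjusted permutation p of the LPS contrast both ways. It fell under 0.05 without PBL pool 1_2 (0.0364), without PL pool 3_4 (0.0485) or without PBP pool 3_4 (0.0273). It rose to 0.218 without PBP pool 1_2 and to 0.164 without PP pool 1_2 or PP pool 3_4. The remaining omissions left it between 0.0606 and 0.097. The contrast of LPS at both times with LPS only last fell under 0.05 without PL pool 3_4 (0.0485).

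**Figure D1:**
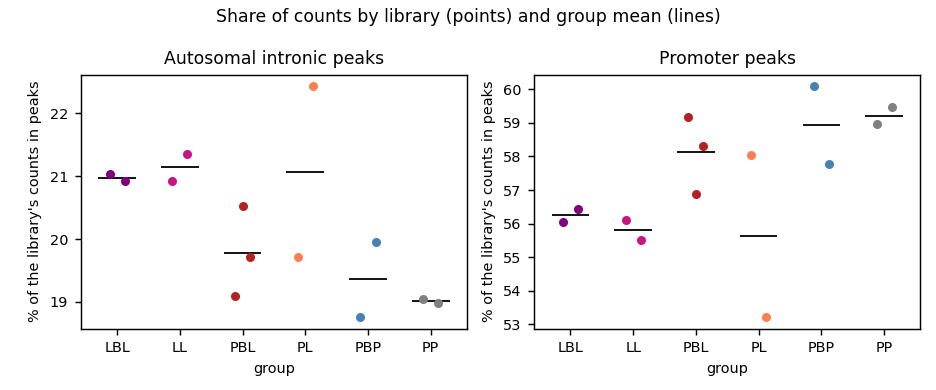
Percent of each library's counts in peaks that fell in autosomal intronic peaks (left) and promoter peaks (right), as a point per library with a line at the group mean; the vertical axes do not start at 0. The PL pool with 22.4% in intronic peaks had 53.2% in promoter peaks, the highest and the lowest value of all 13 libraries.

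The first question was what a single LPS injection did to intronic chromatin of microglia that had never been depleted, PL against PP. Most tested intronic peaks were not called, and those called mostly gained accessibility: 746 rose and 136 fell of 11565 tested (edgeR quasi-likelihood test, Benjamini-Hochberg adjusted p under 0.05 over all 37516 peaks tested). These are 6.45% higher and 1.18% lower, where all tested peaks gave 4.77% higher and 2.69% lower. Promoter peaks had the opposite balance, with 311 higher (2.25%) and 640 lower (4.64%), and intergenic peaks were like the intronic ones, with 575 higher (6.29%) and 152 lower (1.66%). The median log2 fold change was 0.13 over intronic peaks, −0.10 over promoter peaks and 0.01 over all. Called intronic peaks had a median log2 fold change of 1.14 among those that rose and −1.15 among those that fell.

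Several of the clearest gains were large and shared by every LPS group. The peak in intron 1 of Aig1, at chr10:13832531-13833106, lies in a gene for a hydrolase of fatty acid esters. It held 62.8 and 72.4 CPM in PL pools against 18.9 and 16.0 CPM in PP pools (log2 fold change 1.96 ± 0.25 SE, adjusted p = 1.11e-09). A peak in intron 3 of Tbc1d14, at chr5:36538554-36539190, whose product acts in recycling endosomes and autophagy, held 62.2 and 61.2 CPM in PL against 18.9 and 18.0 CPM in PP (log2 fold change 1.74 ± 0.24 SE, adjusted p = 3.73e-08). At both peaks each PL pool held more than 3 times the level of either PP pool. Myo1e, a class I myosin of the cell cortex, had a peak in intron 1 at chr9:70284585-70285327 with 51.0 and 61.2 CPM in PL against 16.8 and 14.0 CPM in PP (log2 fold change 1.87 ± 0.26 SE, adjusted p = 3.36e-08). Peaks in Ildr1, a protein of tricellular junctions, in Oxr1, which protects against oxidative damage, in the transcript Gm19705 and near 1700006H21Rik rose as clearly, by 2.23, 1.64, 2.21 and 2.29 on the log2 scale. So did peaks in Ptprj, a receptor tyrosine phosphatase (1.36, adjusted p = 3.31e-08), and Galnt7, a mucin glycosyltransferase (2.40, adjusted p = 3.31e-08). PL and PP pools did not overlap at any of these peaks, which was a condition of naming them.

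Intron 1 of Hivep3, a large zinc finger factor that binds kB-like elements, held peaks that moved in opposite directions. The peak at chr4:119966113-119967390 had 110.3 and 139.5 CPM in PL against 48.4 and 63.9 CPM in PP (log2 fold change 1.15 ± 0.16 SE, adjusted p = 2.87e-08). The peak at chr4:119911380-119912126 had 32.0 and 30.4 CPM in PL against 58.9 and 55.9 CPM in PP (log2 fold change −0.88 ± 0.21 SE, adjusted p = 0.0029). A gain and a loss thus lie in the same annotated intron.

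Among the strongest losses in PL, several peaks were lower in PBP than in PP as well. These peaks were picked for a low PL and a high PP, a choice that favours peaks where PP alone is high. Sirpa encodes a receptor for CD47 that restrains phagocytosis, and its peak at chr2:129603552-129603772 held 7.71 and 5.33 CPM in PL against 28.4 and 22.0 CPM in PP (log2 fold change −1.95 ± 0.36 SE, adjusted p = 4.27e-05). In PBP, which also had no LPS, the same peak held 12.2 and 10.6 CPM, nearer to PL than to PP. Dock2, an activator of Rac in leukocytes, showed the same picture at chr11:34681641-34682262, with 9.49 and 6.39 CPM in PL, 13.4 and 10.6 CPM in PBP and 28.4 and 25.9 CPM in PP (PL against PP −1.78 ± 0.33 SE, adjusted p = 6.01e-05). Peaks in Copg2, a coat protein subunit (−1.51), Mdga2, a neuronal adhesion molecule (−1.64), and near Plekha1 (−1.01) were likewise lower in both PBP pools than in both PP pools. Jarid2, a partner of the Polycomb complex PRC2, had 49.8 and 37.3 CPM in PL, 56.1 and 60.3 CPM in PBP and 95.7 and 73.9 CPM in PP (−0.97 on the log2 scale for PL against PP, adjusted p = 8.27e-05). Further losses lay in Clip1, a microtubule plus-end protein (−1.73), in 2610307P16Rik (−1.36), near Zfpm1 (−1.16) and near 1700030C10Rik (−1.80). The PP libraries were the shallowest of the study, and they also stood apart in some markers of other cells. Intronic Rbfox3, the only one of 5 defining neuronal markers with an intronic peak, held 9.49 to 12.0 CPM in PL and 20.5 to 23.1 CPM in PP. Lymphocyte promoters, with a peak in 2 of 6 genes, held 41.3 to 46.2 CPM in PL and 56.3 to 59.9 CPM in PP. Rbfox1, another neuronal gene, had peaks that rose in PL. Oligodendrocyte and border macrophage markers did not set PP apart, as their promoter and intronic sums overlapped between PP and PL. Mbp introns held 165 to 190 CPM in PP and 177 to 224 CPM in PL. The part of depth, day or other cells in these losses was not tested.

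Some host genes gained at several of their intronic peaks. Of 579 host genes with a changed peak, 121 had at least 2 that rose, 5 at least 2 that fell and 7 peaks in both directions. Rbm47, an RNA-editing cofactor and splicing regulator, gained at 7 of its 15 intronic peaks, Etv6, a transcriptional repressor of the ETS family, at 6 of 22, and Cdk6, a cell cycle kinase, at 5 of 15. Tg, the thyroglobulin gene, gained at 6 of 14. Peaks in first introns rose in 7.25% and fell in 0.979% of cases, against 5.93% and 1.31% in later introns. By distance, the share that rose was 6.34% at 1 to 5 kb, 5.17% at 5 to 10 kb, 6.88% at 10 to 50 kb and 7.24% beyond 50 kb, with no steady order.

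The intronic median of 0.13 in PL against PP rested on PL pool 3_4, without which it was 0.02, while it was 0.18 without PL pool 1_2, 0.00 with TMM factors from the intronic peaks alone and 0.22 with factors from promoter peaks alone. The count for PL against PP depended on both PL and PP pools: without PL pool 3_4 it was 268 in place of 882, without PP pool 1_2 286, without PP pool 3_4 302, and without PL pool 1_2 1388. The split also moved with scaling, from 84.6% of calls higher to 67.1% with TMM factors from the intronic peaks alone, which shifted the median of all peaks by −0.12, and to 92.7% with factors from promoter peaks alone; DESeq2 called 249 and a fit to the PL and PP libraries alone 563.

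**Figure D2:**
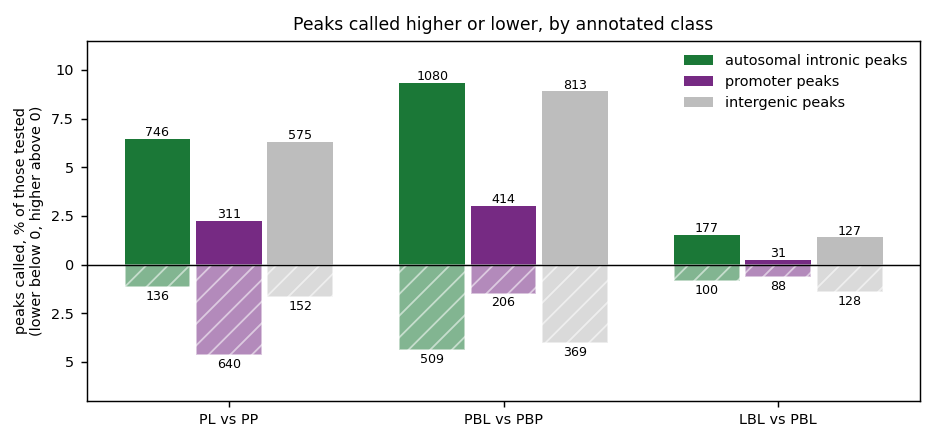
Percent of tested peaks called higher (above 0) and lower (below 0, hatched) in PL vs PP, PBL vs PBP and LBL vs PBL, for autosomal intronic, promoter and intergenic peaks, with the number of peaks on each bar. Intronic peaks gave 746 higher and 136 lower in PL vs PP, where promoter peaks gave 311 higher and 640 lower.

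The same LPS injection was then compared in repopulated microglia, PBL against PBP. Here 1080 intronic peaks rose (9.34%) and 509 fell (4.40%), where all tested peaks gave 6.74% higher and 3.23% lower. Promoter peaks gave 414 higher (3.00%) and 206 lower (1.49%), and intergenic peaks 813 higher (8.89%) and 369 lower (4.04%). The median log2 fold change was 0.01 over intronic, −0.01 over promoter and −0.00 over all peaks. PBL and PBP differ in sorter and day as well as in LPS, and these cannot be told apart.

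The leading gains were again Aig1, Tbc1d14 and Myo1e. Aig1 had 56.2, 79.6 and 65.3 CPM in PBL against 12.8 and 10.6 CPM in PBP (log2 fold change 2.52 ± 0.22 SE, adjusted p = 3.22e-18), Tbc1d14 had 63.2, 83.3 and 75.5 CPM against 15.3 and 18.1 CPM (log2 fold change 2.18 ± 0.20 SE, adjusted p = 2.72e-17), and Myo1e had 50.6, 61.1 and 61.6 CPM against 15.9 and 12.1 CPM (log2 fold change 2.04 ± 0.22 SE, adjusted p = 1.57e-13). Each PBL pool held more than 3 times the level of either PBP pool at these 3 peaks. Rab20, a small GTPase of maturing endosomes and phagosomes, had a peak in its intron at chr8:11463766-11464681 with 75.9, 75.9 and 73.3 CPM in PBL against 26.2 and 19.6 CPM in PBP (log2 fold change 1.68 ± 0.19 SE, adjusted p = 1.84e-12). Nfe2l2, which encodes the antioxidant regulator NRF2, had a peak in intron 1 at chr2:75685427-75685988 with 87.1, 89.8 and 81.4 CPM in PBL against 28.7 and 33.9 CPM in PBP (log2 fold change 1.46 ± 0.16 SE, adjusted p = 2.09e-12). The peak of Lmnb1, the gene of lamin B1 of the nuclear envelope, lies in intron 5 and held 57.6, 73.1 and 58.3 CPM in PBL against 15.9 and 20.4 CPM in PBP (log2 fold change 1.82 ± 0.21 SE, adjusted p = 2.90e-12). Unhosted peaks near Bcl3, an atypical inhibitor of NF-kB, and near Csrnp1, a nuclear protein induced by growth signals, rose by 1.63 and 1.80 on the log2 scale, and one near Gm17746 by 2.03. The Hivep3 pair moved apart once more, with 1.17 (adjusted p = 1.84e-12) at the gaining peak and −0.84 (adjusted p = 2.61e-04) at the losing one.

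More losses were called in PBL against PBP than in PL against PP, and a homeostatic microglial gene led them. PBL had 3 libraries and the PP libraries were the shallowest, so the numbers of calls do not measure a difference between arms. Vsir encodes VISTA, an inhibitory receptor of myeloid cells, and its peak in intron 3 at chr10:60362072-60362751 held 30.9, 32.8 and 27.1 CPM in PBL against 69.6 and 74.7 CPM in PBP (log2 fold change −1.26 ± 0.17 SE, adjusted p = 1.24e-09). In the never-depleted arm the same peak held 36.8 and 30.9 CPM in PL against 50.5 and 58.9 CPM in PP (log2 fold change −0.70 ± 0.21 SE, adjusted p = 0.024). Vsir was thus lower after LPS in both arms. Pools did not overlap in either, which in PBL against PBP was a condition of naming the peak. Pepd, the gene of the dipeptidase prolidase, had a peak at chr7:35026921-35027416 with 22.5, 19.0 and 22.7 CPM in PBL against 53.7 and 56.6 CPM in PBP (log2 fold change −1.36 ± 0.19 SE, adjusted p = 7.06e-09). Losses of similar clarity lay in Chn2, a brake on Rac (−1.32), Tpcn1, an endolysosomal cation channel (−1.10), Cass4, an adaptor of the CAS family (−2.08), and P3h2, a collagen prolyl hydroxylase (−1.62). Naaladl2 (−2.004), 4933406I18Rik (−1.385), and peaks near 4933432K03Rik (−1.13) and near Mthfs (−1.34) completed the strongest losses.

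Here 1016 host genes had a changed intronic peak, 160 with at least 2 that rose, 61 with at least 2 that fell and 63 with both. Prr5l, a partner of the kinase mTOR, gained at 7 of 10 intronic peaks, and Pacsin2, a membrane-curving protein of endocytosis, at 6 of 11. Dock4, an activator of Rap and Rac, gained at 5 of 26 and lost at 1. Rbm47 gained at 5 of 15 and Tg at 5 of 14. First introns gave 10.7% higher and 3.85% lower, later introns 8.44% higher and 4.76% lower. In total 1589 intronic peaks were called, and without PBP pool 1_2 it was 703, without PBP pool 3_4 737 and with DESeq2 452.

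Both arms could be compared peak by peak, as they share no library. Of the 746 intronic peaks higher in PL, 427 were also higher in PBL, which is 57.2% of the never-depleted list and 39.5% of the repopulated list. Of the losses, 44 were shared, 32.4% of 136 and 8.64% of 509. No peak was called in opposite directions. These overlaps were counted for intronic peaks only, so they cannot be read as particular to them. PBL had 3 libraries and the PP libraries were the shallowest, and the part of this in the overlaps was not tested. A list has by construction a larger median in the comparison that chose it. Peaks called higher in PL had a median log2 fold change of 1.14 there and 0.75 in PBL against PBP, and peaks called higher in PBL had 1.11 there and 0.81 in PL against PP. The lower ones had −1.15 and −0.55 for the PL list, and −0.93 and −0.32 for the PBL list.

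**Figure D3:**
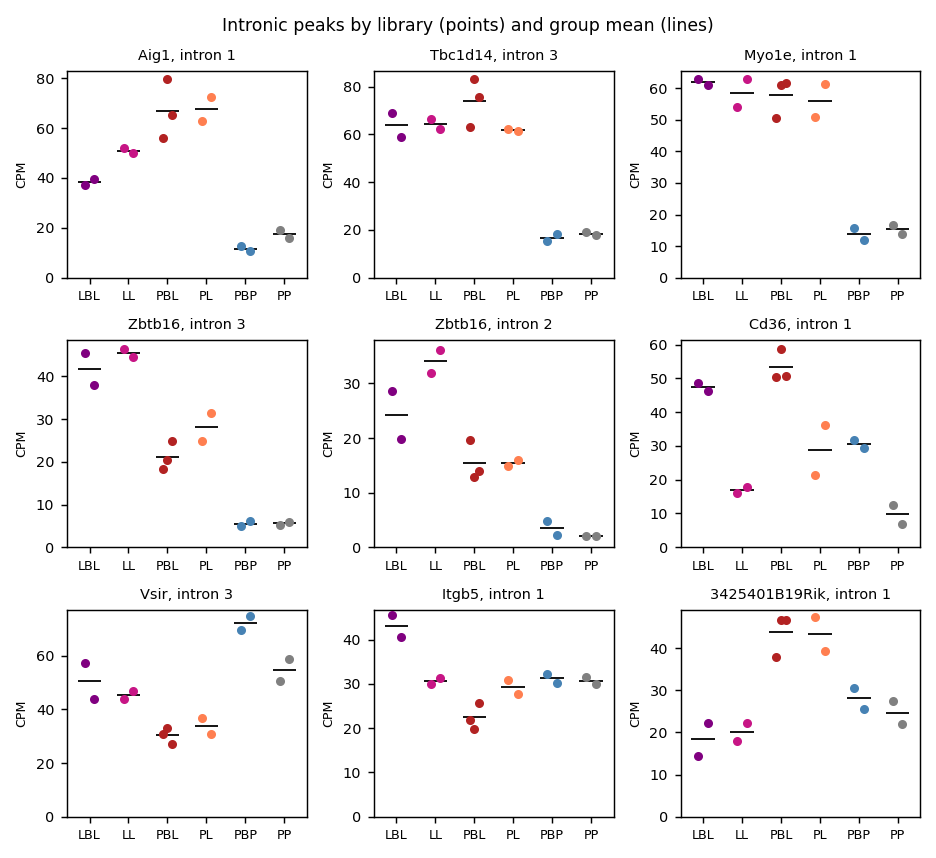
CPM of 9 intronic peaks in each library (points) with group means (lines), for LBL, LL, PBL, PL, PBP and PP from left to right, each panel starting at 0. At the Aig1, Tbc1d14 and Myo1e peaks every LPS library is above every PBS library, while the Cd36 peak is higher in LBL than in LL and higher in PBP than in PP.

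Gene lists, chosen with earlier results of these data known, were read through the intronic peaks of their members. Their counts are to be set beside the shares over all intronic peaks, 6.45% higher and 1.18% lower in PL against PP and 9.34% higher and 4.40% lower in PBL against PBP, and beside the shares over all tested peaks, 4.77% and 2.69%, and 6.74% and 3.23%. In the list of AP-1, immediate early and related factors, 3 of 31 tested peaks rose and 1 fell in PL against PP, all in Hivep2 and Hivep3, and 6 rose and 1 fell in PBL against PBP, in the same pair of genes. The intronic median of this list was 0.41 in PL against PP and 0.27 in PBL against PBP, beside 0.13 and 0.01 over all intronic peaks. Classical inflammatory genes are short and had few introns in peaks: of 44 cytokine, chemokine and NF-kB target genes, 8 had an intronic peak. None of their 18 peaks changed in PL against PP (edgeR, adjusted p under 0.05, with 2 at an unadjusted p under 0.05), and 2 rose in PBL against PBP, in Nfkb1, which encodes an NF-kB subunit, and in Traf1, an adaptor of TNF receptors. The Nfkb1 peak at chr3:135670525-135671104 held 15.5, 15.7 and 9.17 CPM in PBL against 4.88 and 6.03 CPM in PBP (log2 fold change 1.24 ± 0.36 SE, adjusted p = 0.0119). It lies 1186 bp from the nearest start site, just outside the limit for a promoter.

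Interferon-stimulated genes had 9 tested intronic peaks, of which none changed in PL against PP (edgeR, adjusted p under 0.05, with 5 at an unadjusted p under 0.05) and 2 rose in PBL against PBP. These were in Parp14, an ADP-ribosyltransferase (1.10 ± 0.28 SE, adjusted p = 0.00357), and in Trim30a, an interferon-induced regulator of Toll-like receptor signalling. The Trim30a peak at chr7:104445783-104446779 contains the start window with the IRF letters shown above, and held 50.6, 60.1 and 70.4 CPM in PBL against 43.9 and 40.7 CPM in PBP (log2 fold change 0.54 ± 0.16 SE, adjusted p = 0.0166). The lowest PBL pool and the highest PBP pool were close at Trim30a, and the call was lost without PBP pool 1_2, PBP pool 3_4 or PBL pool 4_5. The peak with the Tbc1d22a window, in intron 4 at chr15:86277420-86277810, rose in both arms, with 37.9 and 46.9 CPM in PL against 10.5 and 26.9 CPM in PP (log2 fold change 1.17 ± 0.27 SE, adjusted p = 0.00138) and 49.2, 50.0 and 46.2 CPM in PBL against 27.5 and 29.4 CPM in PBP (log2 fold change 0.77 ± 0.19 SE, adjusted p = 0.00269). The peak in Arhgap22 with the Gm41130 window and that in Eml6 with the Gm39671 window fell in PBL against PBP, by −0.72 ± 0.16 SE (adjusted p = 7.20e-04) and −0.64 ± 0.19 SE (adjusted p = 0.0168). Another peak with a whole window, in Capn3 around the start of 4931402G19Rik, held 27.3 and 26.4 CPM in LBL against 15.5, 13.4 and 12.5 CPM in PBL (log2 fold change 0.99 ± 0.23 SE, adjusted p = 0.00697).

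Glucocorticoid receptor and target genes had 67 tested intronic peaks, of which 7 rose and 1 fell in PL against PP (10.4% and 1.49%) and 11 rose and 5 fell in PBL against PBP (16.4% and 7.46%). Zbtb16, a zinc finger repressor known as PLZF and induced by glucocorticoids, had large gains. Its peak in intron 3 at chr9:48723398-48723981 held 24.9 and 31.4 CPM in PL against 5.26 and 5.99 CPM in PP (log2 fold change 2.31 ± 0.38 SE, adjusted p = 4.31e-06), and 18.3, 20.4 and 24.9 CPM in PBL against 4.88 and 6.03 CPM in PBP (log2 fold change 2.00 ± 0.33 SE, adjusted p = 1.37e-06). Fkbp5, a chaperone that restrains the glucocorticoid receptor, rose in intron 1, at chr17:28463679-28464368, by 1.3803 ± 0.32 SE (adjusted p = 0.00202) in PL against PP and 0.96 ± 0.26 SE (adjusted p = 0.00654) in PBL against PBP. A Ccnd3 peak, in the gene of cyclin D3, fell in both arms (−0.76 and −0.96), as did a Sgk1 peak in PBL against PBP (−1.42, adjusted p = 1.14e-04), although Sgk1 also had a peak that rose in each arm.

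Homeostatic microglia genes had few gains and about as many or more losses. Of 92 tested intronic peaks in 27 of 45 genes, 2 rose and 3 fell in PL against PP (2.17% and 3.26%), and 3 rose and 8 fell in PBL against PBP (3.26% and 8.70%). The list's medians were −0.14 and −0.11, beside 0.13 and 0.01 over all intronic peaks. Mertk, a receptor for dying cells, had 19.0, 21.3 and 22.0 CPM in PBL against 26.2 and 42.2 CPM in PBP at chr2:128747459-128747893 (log2 fold change −0.67 ± 0.21 SE, adjusted p = 0.0241), a call lost without PBL pool 1_2, PBL pool 3_4 or PBP pool 3_4. Peaks in Tgfbr2, a TGF-beta receptor (−0.69), and Slco2b1 fell as well, while Lpcat2, a phospholipid acyltransferase, rose at different peaks in the 2 arms. Smad7, the inhibitory SMAD induced by TGF-beta, had 20.2 and 14.9 CPM in PL against 29.5 and 33.9 CPM in PP (−0.86, adjusted p = 0.0311) and 14.0, 12.03 and 13.2 CPM in PBL against 31.7 and 33.2 CPM in PBP (−1.31, adjusted p = 5.42e-06).

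Transcription factor genes of microglia and other myeloid cells held 268 tested intronic peaks, with 17 higher and 3 lower in PL against PP (6.34% and 1.12%) and 29 higher and 9 lower in PBL against PBP (10.8% and 3.36%), close to the shares over all intronic peaks. Tcf7l2, an effector of Wnt signalling, had a peak in intron 4 at chr19:55839052-55839562 with 29.0 and 30.9 CPM in PL against 8.41 and 5.99 CPM in PP (log2 fold change 2.05 ± 0.36 SE, adjusted p = 1.61e-05), and with 26.0, 31.5 and 34.5 CPM in PBL against 9.76 and 7.54 CPM in PBP (log2 fold change 1.83 ± 0.27 SE, adjusted p = 9.93e-08). Etv6, Runx1 and Zeb2 also gained in both arms, and Foxp1, Nfic and Smad7 lost in both. Chromatin modifier genes gave 11 higher and 2 lower (8.21% and 1.49%), and 14 higher and 7 lower (10.4% and 5.22%), of 134. Hdac4, a class IIa deacetylase, had 81.8 and 90.5 CPM in PL against 45.2 and 38.9 CPM in PP at chr1:92051800-92052767 (log2 fold change 1.04 ± 0.18 SE, adjusted p = 1.54e-05). Peaks in the DNA methyltransferase gene Dnmt3a fell in both arms, by −0.57 and −0.93 at different positions.

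Most intronic peaks of metabolic, trafficking and cytoskeletal genes were not called, and the calls leaned to gains as they did over all intronic peaks. Glycolysis, hypoxia and mTOR genes gave 8 higher and 1 lower in PL against PP (9.88% and 1.23%), and 11 higher and 2 lower in PBL against PBP (13.6% and 2.47%), of 81 tested. Slc2a1, the glucose transporter GLUT1, had 48.6 and 65.0 CPM in PL against 21.0 and 21.0 CPM in PP at chr4:119125365-119126303 (log2 fold change 1.44 ± 0.24 SE, adjusted p = 5.61e-06), and 74.4, 66.2 and 62.3 CPM in PBL against 20.1 and 22.6 CPM in PBP (log2 fold change 1.65 ± 0.19 SE, adjusted p = 1.03e-11). Endosome, Rab and lysosome genes gave 15 higher and 4 lower (8.52% and 2.27%), and 20 higher and 9 lower (11.4% and 5.11%), of 176, with Rin2, a Rab5 activator, at 1.33 in PL against PP and losses in Snx29 in both arms. Actin cytoskeleton regulators gave 19 higher and 5 lower (6.07% and 1.60%), and 32 higher and 14 lower (10.2% and 4.47%), of 313, with Rapgef2 (1.57 in PL against PP) and Fmnl2 (1.55 in PBL against PBP) among the gains and Arhgef18 (−1.376 in PBL against PBP) among the losses. Phagocytosis and efferocytosis genes gave 8 higher and 3 lower (7.27% and 2.73%), and 12 higher and 3 lower (10.9% and 2.73%), of 110. Abca1, which exports cholesterol from cells, rose at separate peaks, by 0.95 in PL against PP and 0.68 in PBL against PBP.

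The remaining lists were small. Toll-like receptor and MAP kinase genes gave 1 higher in PL against PP, in the adaptor gene Ticam2, and 5 higher and 1 lower in PBL against PBP (9.43% and 1.89%), of 53. Negative regulators of LPS signalling gave 3 higher, then 2 higher and 1 lower, of 27, with the gains in Il4ra, the alpha chain shared by receptors for type 2 cytokines, at up to 1.00 in PL against PP. TGF-beta and SMAD genes gave 4 higher and 1 lower (5.48% and 1.37%), and 8 higher and 5 lower (11.0% and 6.85%), of 73. Disease-associated microglia genes gave 1 higher and 1 lower, and 2 higher and 3 lower, of 37. Among them Ctsb, the protease cathepsin B, had 39.3, 50.0 and 41.8 CPM in PBL against 11.0 and 9.05 CPM in PBP at chr14:63132256-63132751 (log2 fold change 2.11 ± 0.25 SE, adjusted p = 1.56e-11), and rose by 1.07 (adjusted p = 0.00393) in PL against PP.

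Markers of other cell types were read the same way. Border and bone-marrow-derived macrophage markers gave 3 higher and 0 lower of 16 in each arm, in Dab2, an endocytic adaptor, and Stab1, a scavenger receptor. At chr15:6411323-6411783 the Dab2 peak held 13.6 and 25.6 CPM in PL against 2.104 and 2.99 CPM in PP (log2 fold change 2.92 ± 0.51 SE, adjusted p = 1.37e-05), and 20.4, 23.1 and 22.7 CPM in PBL against 3.05 and 1.51 CPM in PBP (log2 fold change 3.20 ± 0.41 SE, adjusted p = 3.00e-10). Cd163, Lyve1, Pf4 and Ms4a7, which define border macrophages, had neither a promoter nor an intronic peak, and the intronic sum over Mrc1 was 40.3 to 55.7 CPM in PL and 48.9 to 55.2 CPM in PP. Monocyte, neutrophil and lymphocyte markers had 8 tested intronic peaks, and none changed in any of the 7 comparisons between groups (edgeR, with 0 to 2 at an unadjusted p under 0.05). Neuron, glia and vascular markers gave 2 higher and 1 lower, and 4 higher and 2 lower, of 38, mostly in the long gene Rbfox1.

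**Figure D4:**
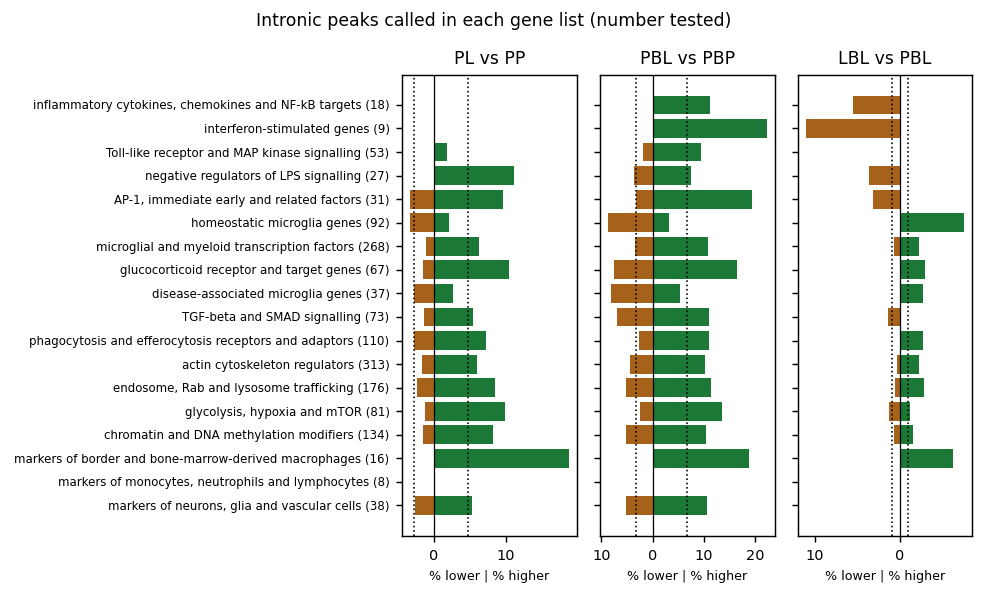
Percent of the tested intronic peaks of each gene list called higher (right of 0) and lower (left of 0) in PL vs PP, PBL vs PBP and LBL vs PBL, with the number tested in parentheses and dotted lines at the share over all tested peaks; each panel has its own horizontal scale. The homeostatic list lies left in PBL vs PBP, with 3 higher and 8 lower, and right in LBL vs PBL, with 7 higher and 0 lower, where both comparisons share the PBL libraries.

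Whether the LPS response differed between the arms was tested as a difference of differences, PBL minus PBP less PL minus PP. Only 1 intronic peak was called with a larger and 2 with a smaller change in the repopulated arm (1119 at an unadjusted p under 0.05), where all tested peaks gave 0.0586% and 0.016%. Kdm6b, a histone demethylase of LPS-activated macrophages, had 88.5, 91.6 and 98.3 CPM in PBL and 47.6 and 70.9 CPM in PBP, with 74.7 and 73.5 CPM in PL and 86.3 and 87.8 CPM in PP (difference 0.91 ± 0.21 SE, adjusted p = 0.0469). Rbm26, an RNA-binding protein gene, had 42.1, 56.4 and 58.7 CPM in PBL and 36.6 and 63.4 CPM in PBP, with 55.7 and 69.8 CPM in PL and 23.1 and 24.0 CPM in PP (difference −1.28 ± 0.30 SE, adjusted p = 0.0448). The low peak in Slc16a7, a lactate and pyruvate transporter gene, had 2.81, 3.24 and 4.40 CPM in PBL and 7.32 and 9.05 CPM in PBP, with 7.11 and 16.0 CPM in PL and 4.21 and 2.00 CPM in PP (difference −3.05 ± 0.68 SE, adjusted p = 0.036). At Rbm26 the PBP pools spanned all PBL pools, and at Slc16a7 the PL pools were farther apart than the PBL and PBP groups. All 3 calls were lost under DESeq2 and under most omissions of a library, and without PL pool 1_2 the count was 175.

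A second LPS injection was compared with a first one in each arm. In microglia that were never depleted, LL against PL, 1 intronic peak rose and 6 fell (1052 at an unadjusted p under 0.05), where all tested peaks gave 0.0133% higher and 0.0506% lower. LL and PL differ in sorter and day as well as in the earlier LPS, and these cannot be told apart. The peak that rose was in intron 2 of Zbtb16, at chr9:48744940-48745377, with 31.9 and 36.2 CPM in LL against 14.8 and 16.0 CPM in PL (log2 fold change 1.15 ± 0.23 SE, adjusted p = 0.0147). Those that fell lay in 3425401B19Rik, Specc1l, a cytoskeletal crosslinker, Tspan18, Myl12b, a myosin light chain, and Hc, which encodes complement C5. At chr14:32683012-32683836 the 3425401B19Rik peak held 18.0 and 22.1 CPM in LL against 47.4 and 39.4 CPM in PL (log2 fold change −1.09 ± 0.21 SE, adjusted p = 0.0044). Specc1l had 5.99 and 9.25 CPM in LL against 19.6 and 29.8 CPM in PL (−1.67, adjusted p = 5.62e-04). No call in LL against PL was made by DESeq2, and without PL pool 1_2 edgeR called 91, without PL pool 3_4 3, without LL pool 1_2 2 and without LL pool 3_4 4.

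In repopulated microglia, LBL against PBL, 177 intronic peaks rose (1.53%) and 100 fell (0.865%), where all tested peaks gave 0.973% higher and 0.928% lower. Promoter peaks gave 31 higher and 88 lower, and intergenic peaks 127 higher and 128 lower. The median log2 fold change was 0.07 over intronic, −0.06 over promoter and −0.01 over all peaks, and the intronic one was −0.01 with TMM factors from intronic peaks alone. By distance, 1.03% rose at 1 to 5 kb, 2.00% at 5 to 10 kb, 1.132% at 10 to 50 kb and 3.14% beyond 50 kb, with no steady order, while 1.27%, 0.846%, 0.741% and 0.478% fell. LBL and PBL were isolated on separate days, which cannot be told apart from the treatment. The 3 PBL libraries also enter PBL against PBP with the opposite sign, so that a peak or list that moves one way there and the other way here is not supported by independent libraries.

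Genes of the homeostatic list stood on the side of gain, with 7 of 92 tested peaks higher (7.61%) and 0 lower, and a median of 0.24. Over all intronic peaks 1.53% rose and 0.865% fell, with a median of 0.07, and over all tested peaks 0.973% and 0.928%. Among the 7 were peaks in Adgrg1, Cmtm6, Itgb5, P2ry6, Upk1b and Vsir. Itgb5, an integrin subunit of microglia, had a peak in intron 1 at chr16:33837251-33837760 with 45.5 and 40.6 CPM in LBL against 21.8, 19.9 and 25.7 CPM in PBL (log2 fold change 0.91 ± 0.19 SE, adjusted p = 0.0013). Adgrg1, the adhesion receptor GPR56, had 16.2 and 16.8 CPM in LBL against 2.81, 7.402 and 8.43 CPM in PBL (log2 fold change 1.27 ± 0.29 SE, adjusted p = 0.00584). The Vsir peak described above held 57.2 and 43.7 CPM in LBL, above all PBL pools and beside 69.6 and 74.7 CPM in PBP. Outside the list, a peak in Pard3b, a polarity protein, held 22.1 and 21.3 CPM in LBL against 4.21, 7.402 and 9.53 CPM in PBL (1.51, adjusted p = 1.60e-04), and one in Mycbp2, a large ubiquitin ligase, rose by 1.37 (adjusted p = 1.83e-04). Gm13986 (0.84) and a peak near Gngt2 (1.05) followed. The Zbtb16 peak in intron 3 had 45.5 and 38.1 CPM in LBL against 18.3, 20.4 and 24.9 CPM in PBL (log2 fold change 0.93 ± 0.19 SE, adjusted p = 0.00138), and a peak in Foxo3, a stress-responsive forkhead factor, rose by 0.99 (adjusted p = 0.00613). A peak in Sesn1, a stress-induced inhibitor of mTOR, rose by 1.29 (adjusted p = 0.0121).

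The peaks that fell in LBL included 1 of 18 in the inflammatory list, 1 of 9 in the interferon list, 1 of 27 in the list of negative regulators and 1 of 31 in the AP-1 list, and none rose in these 4 lists. Over all intronic peaks 1.53% rose and 0.865% fell, and over all tested peaks 0.973% and 0.928%. With so few peaks per list, these counts do not show a lean of the lists. Nfkb1, of the inflammatory list, held 5.20 and 4.06 CPM in LBL against 15.5, 15.7 and 9.17 CPM in PBL (log2 fold change −1.48 ± 0.35 SE, adjusted p = 0.00863), beside 4.88 and 6.03 CPM in PBP. Zc3h12a, which encodes the cytokine mRNA nuclease Regnase-1, had a peak in intron 2 at chr4:125124818-125125185 with 18.2 and 13.2 CPM in LBL against 30.9, 36.5 and 37.4 CPM in PBL (log2 fold change −1.20 ± 0.22 SE, adjusted p = 2.71e-04). Here the PBS-only groups, at 28.1 and 26.4 CPM in PBP and 27.3 and 25.9 CPM in PP, were nearer to PBL. Parp14 (−1.24, adjusted p = 0.00342), Rab20 (−0.65, adjusted p = 0.00665) and the gaining Hivep3 peak (−0.54, adjusted p = 0.00216) fell too. The strongest loss was in intron 1 of Rab11fip4, an effector of recycling endosomes, at chr11:79611005-79611585, with 2.60 and 4.06 CPM in LBL against 14.0, 19.4 and 17.6 CPM in PBL (log2 fold change −2.32 ± 0.35 SE, adjusted p = 5.83e-06). The 3425401B19Rik peak held 14.3 and 22.3 CPM in LBL against 37.9, 46.7 and 46.6 CPM in PBL (log2 fold change −1.24 ± 0.20 SE, adjusted p = 2.76e-05). Diaph3, an actin-nucleating formin (−1.77), and Gucy2g, a guanylyl cyclase (−0.96), fell with them.

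Across the other lists in LBL against PBL, where 1.53% of all intronic peaks rose and 0.865% fell, myeloid transcription factor genes gave 6 higher and 2 lower of 268 (2.24% and 0.746%) and actin regulators 7 higher and 1 lower of 313 (2.24% and 0.319%). Endosomal genes gave 5 higher and 1 lower of 176 (2.84% and 0.568%), and phagocytosis genes 3 higher and 0 lower of 110 (2.73% and 0%). Glucocorticoid genes gave 2 higher and 0 lower of 67, chromatin modifiers 2 higher and 1 lower of 134, glycolysis genes 1 higher and 1 lower of 81, with Hk2 lower, and TGF-beta genes 0 higher and 1 lower of 73, in Eng. Disease-associated genes gave 1 higher of 37, in Serpine2, and border macrophage markers 1 higher of 16, in Cp, the gene of ceruloplasmin. Toll-like receptor genes and markers of neurons, glia and vascular cells gave none (edgeR, adjusted p under 0.05, with 12 and 3 at an unadjusted p under 0.05).

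The LL and LBL comparisons share no library, and of the peaks called in them 2 losses were shared, 33.3% of 6 and 2% of 100, and no gain. One of these is the 3425401B19Rik peak. The 277 calls in LBL against PBL depended on single pools: without LBL pool 1_2 there were 25, without LBL pool 3_4 33, without PBL pool 4_5 125, without PBL pool 3_4 150, without PL pool 1_2 429 and without PL pool 3_4 433. The LBL pools differed by no more than counting noise, and with both counted as 1 sample there were 169 calls (102 higher and 67 lower); with TMM factors from intronic peaks alone the balance turned to 80 higher and 133 lower, with factors from promoter peaks it was 197 and 59, and DESeq2 called 2, both lower.

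Few intronic peaks were called between repopulated and never-depleted microglia when the injections were matched. With so few libraries per group, few calls do not show that the arms were alike. The matched groups also differed in isolation day, and PBL and PL in sorter as well. The part of day and sorter in these comparisons was not tested. At rest, PBP against PP, 5 rose and 3 fell (941 at an unadjusted p under 0.05), where all tested peaks gave 0.064% higher and 0.096% lower. After a first LPS, PBL against PL, 6 rose and 5 fell (1236 unadjusted), where all tested peaks gave 0.0613% and 0.0213%. After a second, LBL against LL, 7 rose and 6 fell (1053 unadjusted), where all tested peaks gave 0.024% and 0.0267%.

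A peak in intron 1 of Cd36 was called in all 3. Cd36 is a scavenger receptor for oxidised lipids and fatty acids, and the peak at chr5:17854438-17854984 lies 4646 bp from the nearest start site. It held 48.7 and 46.2 CPM in LBL against 16.0 and 17.7 CPM in LL (log2 fold change 1.48 ± 0.22 SE, adjusted p = 4.92e-06). In PBL it held 50.6, 58.8 and 50.6 CPM against 21.3 and 36.2 CPM in PL (log2 fold change 0.87 ± 0.18 SE, adjusted p = 0.0205), and in PBP 31.7 and 29.4 CPM against 12.6 and 6.99 CPM in PP (log2 fold change 1.65 ± 0.34 SE, adjusted p = 0.0052). Pools of the matched groups did not overlap, which was a condition of naming the peak in these comparisons. A second peak in the same intron, at chr5:17857325-17857600, was called in LBL against LL as well (1.62 ± 0.28 SE, adjusted p = 5.85e-04). LPS also moved the first of these Cd36 peaks, at chr5:17854438-17854984, by 1.57 (adjusted p = 5.71e-04) in PL against PP and 0.80 (adjusted p = 0.00107) in PBL against PBP. The call in LBL against LL held under all 9 alternatives run on it, while that in PBP against PP was lost without PBP pool 1_2, without either PP pool or with DESeq2, and that in PBL against PL without PL pool 1_2, PBL pool 3_4 or PBL pool 4_5, with promoter scaling or with DESeq2.

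Other calls between the arms lay in single genes. In PBP against PP, peaks rose in Cmtm6, which stabilises the checkpoint ligand PD-L1 (58.6 and 57.3 against 31.6 and 27.9 CPM), Marchf1, a ubiquitin ligase of antigen presentation (17.1 and 20.4 against 4.21 and 5.99 CPM), Rbm26 and Magi1. Peaks fell in Abcg2, a drug efflux pump (4.88 and 6.03 against 23.1 and 18.0 CPM), near Gse1 and in Grap2. At Abcg2, picked for a high PP against PBP, the PP pools alone were high among all 6 groups. In PBL against PL, Sh3pxd2b, a scaffold of podosomes, had 27.4, 30.5 and 24.2 CPM in PBL against 11.9 and 7.46 CPM in PL (log2 fold change 1.501 ± 0.26 SE, adjusted p = 9.71e-04), and Atp10a, a lipid flippase, rose by 0.92 (adjusted p = 0.0205). Xylt1, Rbm20 and Cd36 were the other named gains, and Slc16a7, Zeb1, Polr1a, Dlgap2 and a peak near Barx2 the named losses. In LBL against LL, Fbn2, a fibrillin, had 20.8 and 22.8 CPM in LBL against 7.99 and 7.24 CPM in LL (log2 fold change 1.52 ± 0.30 SE, adjusted p = 0.00929), and Myo5a, R3hcc1l and Slc16a10 rose as well. Rcan1, an inhibitor of calcineurin, had 12.3 and 8.12 CPM in LBL against 27.5 and 24.1 CPM in LL (log2 fold change −1.35 ± 0.27 SE, adjusted p = 0.0121), and Slc44a5, Ank2, Reep3 and a peak near Irf8 fell. Counts this small moved with single pools, from 0 to 18 in PBP against PP (0 without PP pool 1_2), from 1 to 228 in PBL against PL (228 without PL pool 1_2) and from 1 to 30 in LBL against LL (1 without either LL pool).

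Across all 6 groups at once, 2350 intronic peaks differed (20.3%), where all tested peaks gave 16.6%, promoter peaks 11.0% (1517) and intergenic peaks 20.1% (1837). Of the 2350, 1200 (51.1%) had all 4 LPS group means above both PBS means and 276 (11.7%) had them below. Single libraries were ordered without exception in 687, with all 9 LPS libraries above all 4 PBS libraries, and in 100 with all below. These orders were counted only among intronic peaks that differed. Without the same counts over promoter, intergenic or all peaks, they cannot be read as particular to intronic peaks. The highest mean was in LBL for 518, in LL for 371, in PBL for 468, in PL for 482, in PBP for 287 and in PP for 224. The order of the smallest p-values was led by Aig1, Tbc1d14, the intron 3 peak of Zbtb16 and Myo1e.

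Mean levels at the Zbtb16 peaks were higher with LPS at both times than with a single LPS, with a call in 1 arm each, LBL against PBL for intron 3 and LL against PL for intron 2. LL and PL also differ in sorter and day, and LBL and PBL in day, which cannot be told apart from the treatment. In intron 3 the level was 41.8 ± 5.23 CPM in LBL, 45.5 ± 1.24 in LL, 21.2 ± 3.41 in PBL, 28.2 ± 4.61 in PL, 5.46 ± 0.815 in PBP and 5.62 ± 0.515 in PP (SD, n = 3 for PBL and 2 for the others). In intron 2 it was 24.2 ± 6.21 CPM in LBL, 34.1 ± 3.02 in LL, 15.5 ± 3.63 in PBL, 15.4 ± 0.818 in PL, 3.57 ± 1.85 in PBP and 2.05 ± 0.0761 in PP. In intron 3, LBL and LL did not differ beyond their spread, nor did PBP and PP, while every pool with LPS at both times was above every pool with a single LPS. The intron 2 call in LL against PL was lost without LL pool 1_2, LL pool 3_4 or PL pool 3_4, and with DESeq2.

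To compare an intronic element with the promoter of the same gene, counts were summed over the intronic and over the promoter peaks of 2960 genes that had both. In PL against PP the intronic sum rose relative to the promoter sum in 180 genes and fell in 10, 6.08% and 0.338% of the genes tested, with a median log2 difference of 0.23. In PBL against PBP it rose in 163 and fell in 80 (5.51% and 2.7%, median 0.03). In LBL against PBL it rose in 9 and fell in 5 (0.304% and 0.169%, median 0.11). In LL against PL it rose in 0 and fell in 0 (0% and 0%, median −0.05), with 179 genes at an unadjusted p under 0.05 by edgeR.

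Rab37, a Rab GTPase of secretory granules, had 62.2 and 53.3 CPM in its introns in PL against 33.7 and 28.9 CPM in PP, while its promoter had 26.1 and 18.1 CPM in PL against 45.2 and 49.9 CPM in PP (log2 difference 2.00 ± 0.33 SE, adjusted p = 2.94e-06). Introns and promoter thus went in opposite directions. Nfe2l2 had 180.2 and 208 CPM in its introns in PL against 91.5 and 112 CPM in PP, with 234 and 197 and 215 and 214 CPM at the promoter (log2 difference 0.93 ± 0.18 SE, adjusted p = 1.91e-04). Foxo3 (1.22), Rnf24 (1.69) and Iffo2 (1.16) were like them. Mmp2, a gelatinase, went the other way (−2.097), as did Crnde, Epb41l4b, Ell2 and Ift80.

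In the repopulated arm Lmnb1 led, with 89.9, 109 and 90.9 CPM in its introns in PBL against 30.5 and 27.2 CPM in PBP and 122, 106 and 125 against 107 and 104 CPM at its promoter (log2 difference 1.58 ± 0.21 SE, adjusted p = 2.50e-10). Nfe2l2 was called here too (0.95), with Rlf (1.77) and the sorting nexin Snx1 (1.39). Pepd (−1.23), the DNA repair gene Tdp1 (−1.21), Zswim4, Zfp516 and Dcaf12 fell at introns relative to promoter. In LBL against PBL the gains were Txndc11 (1.14), Gna13, Gpat3, Edc3 and Parp8, and the losses Ubtd2 (−1.64), Traf2 (−1.67), Lmnb1 (−0.71), St7 and Zc3h12a. Lmnb1 introns held 55.9 and 65.5 CPM in LBL against 89.9, 109 and 90.9 CPM in PBL, below PBL and above PBP, at a promoter that held 119 and 123 CPM in LBL.

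These counts and medians leaned on the shift between intronic and promoter shares. The median of 0.23 in PL against PP was 0.01 with each kind of peak scaled by its own TMM factors, 0.06 without PL pool 3_4 and 0.37 without PL pool 1_2, and the median of 0.11 in LBL against PBL turned to −0.03 with own factors. With each kind of peak scaled by its own TMM factors, an alternative chosen after seeing the data, PL against PP gave 75 higher and 45 lower, PBL against PBP 194 and 124, and LBL against PBL 9 and 25; without PL pool 3_4 the 190 calls in PL against PP were 18, without PP pool 1_2 54, without PP pool 3_4 32 and without PL pool 1_2 479, while the 243 in PBL against PBP were 49 without PBP pool 1_2, 69 without PBP pool 3_4, 112 without PBL pool 3_4 and 141 without PBL pool 4_5.

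**Figure D5:**
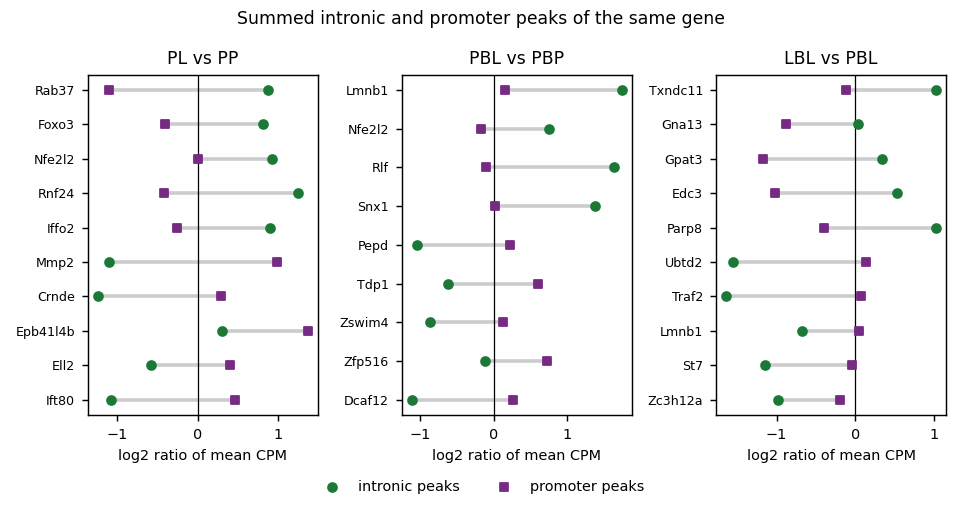
Log2 ratio of mean CPM between the groups named above each panel, for the summed intronic peaks (green circles) and the summed promoter peaks (purple squares) of genes named for each comparison, at most 10, with lines joining the pair of each gene. In PL vs PP the introns of Rab37 lie right of 0 and its promoter left of 0.

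A set of 18 host genes was read whether or not their peaks moved. P2ry12, Mef2a and Birc3 had no intronic peak. Elmo1, an engulfment adaptor, had 23 intronic peaks, and none was called in PL against PP or PBL against PBP (edgeR, with 5 and 4 at an unadjusted p under 0.05). Csf1r and Cx3cr1, receptors that mark microglia, had 2 intronic peaks each with no call in either, and the Csf1r sum was 127 ± 10.8 CPM in PL against 132 ± 16.8 CPM in PP (SD, n = 2 each). Over all its 7 intronic peaks Zbtb16 summed to 155 ± 12 CPM in LBL, 175 ± 4.79 in LL, 103 ± 14.6 in PBL, 116 ± 15.8 in PL, 59.5 ± 2.21 in PBP and 68.1 ± 0.357 in PP. The 8 peaks of Fkbp5 summed to 228 ± 23.3 CPM in LBL, 239 ± 1.23 in LL, 207 ± 8.88 in PBL, 192 ± 30 in PL, 137 ± 16.6 in PBP and 157 ± 10.9 in PP. Mertk, with 5 peaks, summed to 109 ± 2.35 CPM in LBL, 116 ± 3.76 in LL, 84.8 ± 10.9 in PBL, 81.7 ± 1.82 in PL, 120.1 ± 22.2 in PBP and 114 ± 0.83 in PP. Zbtb16 sums were highest in LL and LBL, and Mertk sums were lowest in PL and PBL.

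The other fixed hosts varied in the share of their peaks that were called. Over all intronic peaks 6.45% rose and 1.18% fell in PL against PP, and 9.34% and 4.40% in PBL against PBP. All tested peaks gave 4.77% and 2.69%, and 6.74% and 3.23%. Runx1, a myeloid master regulator, had 14 intronic peaks, of which the one at chr16:92620738-92621083 in intron 6 rose by 1.71 ± 0.40 SE (adjusted p = 0.0022) in PL against PP and 2.07 ± 0.36 SE (adjusted p = 3.95e-06) in PBL against PBP. Mef2c, also with 14, gained at 2 in PBL against PBP, one at chr13:83585209-83585696 (1.05 ± 0.23 SE, adjusted p = 3.90e-04), and at none in PL against PP. Zeb2, with 6, gained at 2 in each arm, and the peak at chr2:45049203-45049663 did so in both (0.75 and 0.59). Cd86, a costimulatory ligand, had 5, with 2 higher in each arm and 2.003 ± 0.50 SE (adjusted p = 0.00418) at chr16:36632178-36632485 in PL against PP. Tgfbr2 had 11 and lost at 2 in PBL against PBP. Tgfbr1 and Rel, with 2 each, had no call in either arm.

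The hosts richest in intronic peaks were Bach2 with 27, Zfhx3 and Dock4 with 26 each, Nav2 with 25 and Rad51b with 24. Bach2, a repressor of the BACH family, gained at 2 and lost at 2 in PBL against PBP, and lost at 1 in PL against PP. Rad51b, a DNA repair gene, gained at 3 in PBL against PBP, the clearest at chr12:79613394-79613755 (1.74 ± 0.31 SE, adjusted p = 1.26e-05), and at 1 in PL against PP. Nav2, a neuron navigator gene, lost at 2 in PBL against PBP, one of them at chr7:49544488-49545248 (−1.004 ± 0.20 SE, adjusted p = 1.31e-04). In Dock4 a peak at chr12:40605984-40606334 fell by −1.02 in PBL against PBP and rose by 1.08 in LBL against PBL, with 20.8 and 21.3 CPM in LBL, 6.32, 10.2 and 11.7 CPM in PBL and 19.5 and 21.1 CPM in PBP.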

How the data were processed

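ATAC-seq libraries of 13 pools were analysed from 1 deposited table that holds, for a peak set common to all libraries, the authors' expected or estimated count per peak, unnormalized and in steps of 0.5. Widths and start-site distances are given in bp, per the file headers. A second table gives the isolation day and sorter. GRCm38 and mm10 are the builds listed, and the tools, per the submitters' processing notes, include MACS2 2.1.1, Bowtie2 2.2.6, HOMER 4.9.1, ChIPseeker 1.38 and bedtools 2.26. Those notes do not say which tool counted, nor whether cut positions were offset for the transposase.

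Counts were rounded to whole numbers and fitted in R 4.3.3 with edgeR 4.0.16. filterByExpr with a minimum count of 10 left 37516 of 38620 peaks. All 13 libraries entered one quasi-likelihood fit with 6 group means and TMM scaling. Contrasts were tested two-sided with the F test, adjusted by Benjamini-Hochberg over the 37516 peaks, and called at an adjusted p under 0.05. The SE is the absolute log2 fold change over the square root of F. All adjusted p-values of peaks and genes come from edgeR. For the comparison within genes, intronic and promoter counts of 2960 genes were summed and the interaction of peak class with group was tested, with adjustment over these genes. Shares of counts were compared with exact permutation tests in scipy 1.17.1. The fits were tested on simulated data.

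Members, gene lists and hosts were chosen with earlier results of these data known. Named peaks are the 10 called peaks of smallest p per direction and 1 per host whose pools did not overlap, for PL against PP and PBL against PBP, 5 per direction for the other comparisons, 10 for the test over 6 groups, up to 2 per list and direction, 18 fixed hosts, the 5 hosts richest in peaks, and called peaks that hold a whole start window. Peaks were assigned a host only where the annotation carried a gene ID and the RefSeq gene spans the peak. Alternatives were RLE factors, TMM factors from intronic or promoter peaks alone, a replicate block, each library left out, only the compared groups, only peaks over 10 kb from a start site, and DESeq2 1.42.0. Added after seeing the data were own TMM factors for intronic and promoter sums, and the LBL or the PP pools counted as 1 sample. Over all peaks, LBL pools differed by no more than counting noise (chi-square per degree of freedom 0.978, p = 0.999) and so did PP pools (1.01, p = 0.0716), while the other pairs of pools ranged from 1.03 to 1.84. Over intronic peaks alone, LL (1.01) and PBP (1.01) pools were also within counting noise by this test, and PL pools differed most (1.37). This holds if each deposited unit is 1 independent event, which is not known, and both pools were kept as separate samples. Depth was 927893 to 2772620 counts per library, and at the median intronic level of 12.9 CPM a PP library holds few counts, so that small changes there were not detectable.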

Additional observations from a re-analysis of the deposited data

Results flagged for a closer look

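At 3 intronic peaks the response to a first LPS injection differed between repopulated and never-depleted microglia by the interaction test of edgeR. The difference was 0.91 on the log2 scale at Kdm6b (adjusted p = 0.0469), −1.28 at Rbm26 (adjusted p = 0.0448) and −3.05 at Slc16a7 (adjusted p = 0.036). Kdm6b was kept under 4 of 14 alternatives, Rbm26 under 7 and Slc16a7 under 5. PBL was isolated on another day and sorter than the 3 other groups, and the part of these in the differences was not tested.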

How the results depend on the processing

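Counts of called intronic peaks depended on the tool, on single pools and, in the direction of their balance, on scaling; no named peak reversed. DESeq2 called 249 peaks in PL against PP in place of 882, 452 in PBL against PBP in place of 1589, 0 in LL against PL in place of 7, 2 in LBL against PBL in place of 277, 0 in PBP against PP in place of 8, 0 in PBL against PL in place of 11, 1 in LBL against LL in place of 13, 0 for the difference between the arms in place of 3, and 625 over 6 groups in place of 2350. Over 10 kb from a start site, with fewer peaks to call, these were 513, 883, 2, 144 and 1345 for PL against PP, PBL against PBP, LL against PL, LBL against PBL and 6 groups, and 6 for PBL against PL; within genes 116, 140 and 7 for PL against PP, PBL against PBP and LBL against PBL. TMM factors from intronic peaks gave 4 for LL against PL, 3 for PBP against PP, 5 for PBL against PL, 4 for LBL against LL and 0 for the difference, and factors from promoter peaks 4, 4, 5 and 5 for the same first 4. Fits to the compared groups alone gave 563 for PL against PP, 1 for LL against PL, 19 for PBP against PP, 1 for PBL against PL, 38 for LBL against LL and 1 for the difference.

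With LBL pools counted as 1 sample there were 169 for LBL against PBL, 5 for PBP against PP, 6 for PBL against PL, 7 for LBL against LL and 1 for the difference, and with PP pools as 1 sample 3 for PBP against PP, 7 for PBL against PL and 0 for the difference. Leaving out 1 library gave 268 to 1388 for PL against PP, 703 to 1836 for PBL against PBP, 2 to 91 for LL against PL, 25 to 433 for LBL against PBL, 0 to 18 for PBP against PP, 1 to 228 for PBL against PL, 1 to 30 for LBL against LL, 0 to 175 for the difference and 1731 to 3200 over 6 groups. Within genes it gave 18 to 479 for PL against PP, 49 to 331 for PBL against PBP, 0 to 9 for LL against PL and 0 to 48 for LBL against PBL. Own TMM factors for introns and promoters gave 120, 1 and 34 for PL against PP, LL against PL and LBL against PBL.

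Replicate numbers did not pair the pools: of 15 pairs of groups, 0 had deviations correlated above 0.1 (−0.0113 to 0.0872). With the replicate block there were 980 for PL against PP, 1329 for PBL against PBP, 14 for LL against PL, 177 for LBL against PBL, 15 for PBP against PP, 21 for LBL against LL and 17 for the difference. The intronic part of distal counts, BLZ945 minus vehicle, was 0.038 points and turned to −0.0691 over 10 kb and to −0.325 within the XDP libraries, with −0.0922 to 0.157 when 1 library was left out. The share of counts in intronic peaks, LPS minus PBS, was 1.22 to 1.7 points with 1 library left out, and for LPS at both times minus LPS once 0.462 to 1.3. Of 205 named pairs of peak and comparison, 72 kept their call under all alternatives run and 3 more under all but DESeq2; DESeq2 kept 83, lost 103 and gave no adjusted p for 19, and leaving out 1 library lost 327 of the calls retested. The cause was not tested for any of these changes other than fewer peaks or samples. Depth limits most of all the PP libraries.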

Other observations

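Intronic peaks that rose after LPS were wider than intronic peaks at large. Their median width was 478.5 bp for those higher in PL and 451.5 bp for those higher in PBL, against 365 bp over all tested intronic peaks. Their median level per kb was 55.5 CPM and 41.9 CPM, against 36.0 CPM over all tested intronic peaks. These levels are means over all 13 libraries, 9 of them with LPS as the last injection. The rise for which the peaks were picked therefore enters their level. Low and narrow peaks have fewer counts, and the part of depth in these widths and levels was not tested. Intronic peaks that fell had 419.5 bp in PL and 434 bp in PBL.

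The gene of the motif-bearing Gm39671 window lies inside Eml6, a microtubule-associated protein, and that of Gm41130 inside Arhgap22, a brake on Rac. In the deposited table the nearest start site lies 5328 bp from the Eml6 peak and 14890 bp from the Arhgap22 peak, so that start sites in one annotation are missing from the other.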
